A study of Mus musculus with 24 samples.

Results

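The mouse mitochondrial genome encodes 37 genes, and all 37 were listed among the 53900 features of the CLIP and RIP count tables. They were chosen by symbol alone, as every gene whose symbol starts with mt-. They comprise 22 tRNAs, 13 mRNAs and 2 rRNAs, and all were matched by Ensembl identifier to the mitochondrial chromosome (MT) of the RefSeq table for GRCm38.p6. There they run from mt-Tf (MT, 1 to 68) to mt-Tp (MT, 15356 to 15422).

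Mitochondrial DNA is transcribed from both strands as long precursors, in which the tRNAs stand between the mRNAs and rRNAs. RNase P and the RNase Z enzyme ELAC2 cut the precursors at the ends of the tRNAs, and the freed tRNAs are modified and charged by enzymes imported from the cytosol. The 13 mRNAs encode subunits of respiratory complexes I, III and IV and of ATP synthase, and the 2 rRNAs are those of the mitochondrial ribosome. Cytosine methylation is among the known modifications of mitochondrial tRNAs and rRNA. The methionine tRNA is known to carry an oxidised form of 5-methylcytosine in its anticodon.

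The study used mouse embryonic stem cells (mESCs), grown in serum with leukemia inhibitory factor, 3 µM CHIR99021 and 1 µM PD0325901, and asked which RNAs the dioxygenase TET2 contacts and which carry 5-hydroxymethylcytosine (hm5C), the product of its oxidation of 5-methylcytosine. For crosslinking and immunoprecipitation (CLIP), E14 cells with HA-His-tagged Tet2 (Tet2HA-His), clones 65 and 75, received 500 µM 4-thiouridine (4SU) for 4 hours and 400 mJ/cm2 UVB, in input and TET2 CLIP alike. Each clone gave 2 input and 2 TET2 CLIP libraries; no library of untagged cells was analysed here, so recovery with TET2 cannot be set against recovery without the tag. For RNA immunoprecipitation (RIP) with an hm5C antibody, untreated B6;129 cells gave 2 input and 2 hm5C RIP libraries, made with a small RNA kit. For small RNA sequencing, RNA of 14 to 38 nt came from untreated cells labelled B6; 129: WT and Tet2 KO in experiment 1, and E14 and Tet2 KO in experiment 2 (3 libraries each).

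Total counts were 913002 to 4729463 in CLIP inputs, 221060 to 453944 in TET2 CLIP, 4641963 to 4889943 in RIP inputs and 1564014 to 2100187 in hm5C RIP. A single feature held a large part of every library: Gm26917 17.6 to 34.3% of each CLIP library, Snord43 14.3 to 15.96% of RIP inputs, and Acsl6 55.2% and 60.6% of the hm5C RIP libraries. Embryonic stem cell markers had counts for 10 of 10 genes, with a summed level of 1055 to 1905 counts per 1000000 library counts in CLIP inputs and 24.99 to 25.97 in RIP inputs. Fibroblast markers (8 genes) summed to 17.1 to 19.7 and 3.23 to 3.27 in the same libraries, and primitive endoderm markers (8 genes) to 14.2 to 19.2 and 1.94 to 2.66. Tet2 itself was at 351 and 369 CPM (counts per 1000000 counts in tested features, scaled by TMM) in the inputs of clone 65 and 353 and 342 in those of clone 75.

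Reads were assigned to 28 of the 37 genes (17 tRNAs, 9 mRNAs and 2 rRNAs), and 9 genes had 0 counts in all 12 CLIP and RIP libraries. The 9 were the mRNAs mt-Co2 and mt-Co3 (cytochrome c oxidase subunits), mt-Atp6 and mt-Atp8 (ATP synthase subunits), and the tRNAs mt-Ts1, mt-Td, mt-Tk, mt-Tg and mt-Ty. Of these, 8 are neighbours that fill 1 unbroken stretch of 2589 bases, from mt-Ts1 to mt-Tg (MT, 6870 to 9458). The ninth, mt-Ty (MT, 5260 to 5326), lies apart, next to the well-counted mt-Co1 (MT, 5328 to 6872). A total of 0 among the 12034049 counts of the CLIP libraries allows a level of up to 0.249 CPM, and among the 13196107 counts of the RIP libraries up to 0.227 CPM, for counting error alone. mt-Co1, which borders the empty stretch, had 1362 and 1553 CPM in the inputs of clone 65.

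Nuclear copies of mitochondrial DNA took counts in the same libraries. Of 11 such genes listed from general knowledge, 10 had counts. The copies Gm10925, Gm28437, Gm28661 and Gm29216 held 10143, 9153, 9050 and 10556 counts over the 8 CLIP libraries. Gm10925 (chromosome 1, 24613971 to 24614651) has mt-Atp6 among its synonyms in RefSeq and the same length, 681 bases, as mt-Atp6 (MT, 7927 to 8607). The copies together made up 0.320 ± 0.0475% (SD, n = 2) of the inputs of clone 65 and 0.460 ± 0.00112% of those of clone 75, against 0.0143 ± 0.00114% of RIP inputs. A read that fits both a mitochondrial gene and its nuclear copy could be counted in either or in none; no source used here gives the counting rule, and its part in the zeros was not tested. The plot of levels in genome order shows the empty stretch between mt-Co1 and mt-Nd3.

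**Figure D1:**
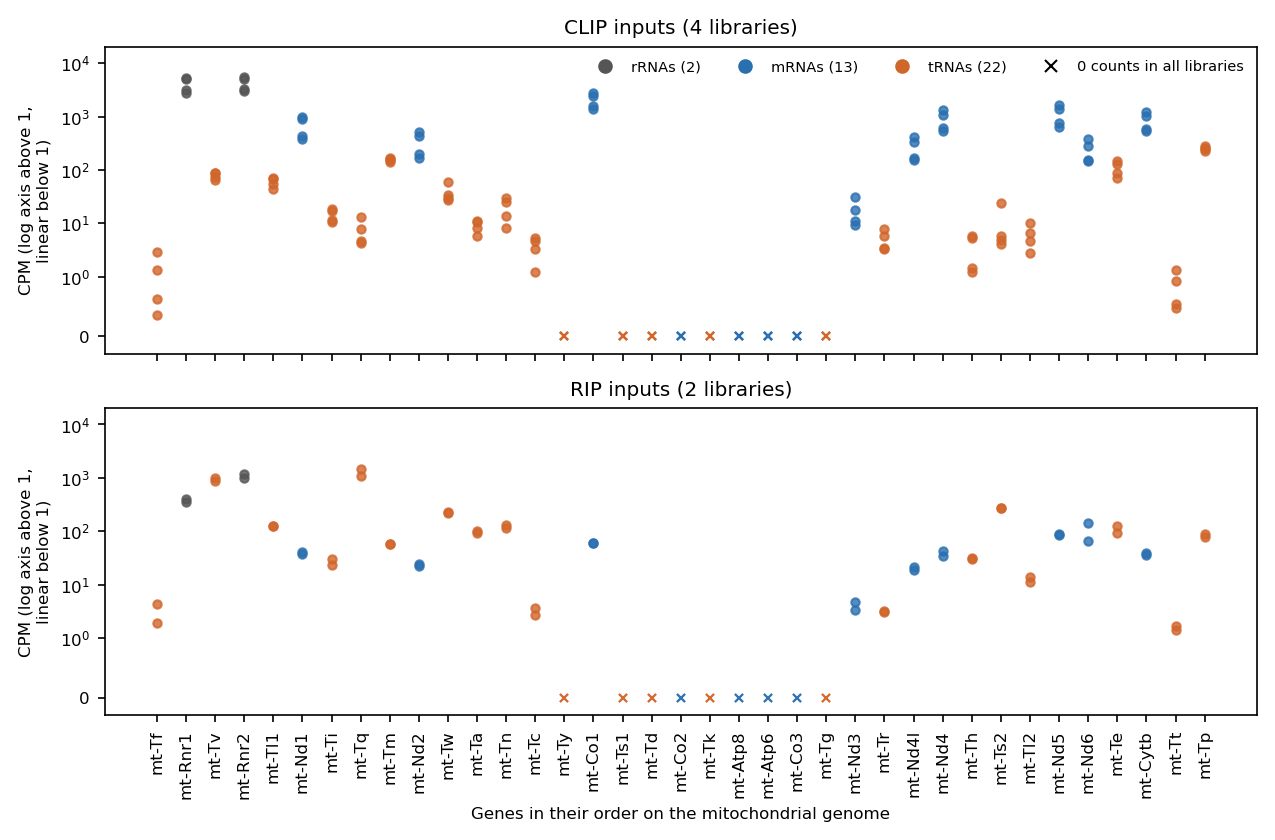
Levels of the 37 mitochondrially encoded genes in their order on the genome, in 4 CLIP input libraries (top) and 2 RIP input libraries (bottom), in CPM on an axis that is logarithmic above 1 and linear below. Each point is 1 library; crosses mark the 9 genes at 0 in all libraries, 8 of which are neighbours.

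CLIP and RIP libraries held the classes in different proportions. In CLIP inputs the 2 rRNAs held 55.4 ± 0.263% (clone 65) and 52.6 ± 1.94% (clone 75) of all mitochondrial counts, the mRNAs 38.2 ± 0.637% and 43.1 ± 2.09%, and the tRNAs 6.33 ± 0.374% and 4.29 ± 0.153% (SD, n = 2 each). In RIP inputs the tRNAs came first instead of last, with rRNAs still above mRNAs: tRNAs held 64.3 ± 4.14%, rRNAs 27.8 ± 4.81% and mRNAs 7.87 ± 0.672%. All mitochondrial genes together were 1.23 ± 0.135% of the library in CLIP inputs of clone 65, 1.73 ± 0.00116% in those of clone 75 and 0.486 ± 0.00393% in RIP inputs. They were 1.09 ± 0.165% and 1.26 ± 0.496% of TET2 CLIP libraries of clones 65 and 75, and 0.217 ± 0.00180% of hm5C RIP libraries. Cell strain, the tag on Tet2, treatment with 4SU and UVB, and library protocol differed together between the CLIP and RIP parts and cannot be told apart. In bulk samples, fewer cells of a type and less RNA per cell cannot be told apart either.

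Within the mitochondrial counts, TET2 CLIP of clone 65 held 8.63 ± 0.221% tRNA, 44.4 ± 2.01% mRNA and 47.0 ± 2.24% rRNA, and TET2 CLIP of clone 75 held 5.22 ± 0.632%, 47.9 ± 3.07% and 46.9 ± 2.44%. In both clones the rRNA share was lower than in the inputs, with no overlap of libraries. In hm5C RIP, tRNAs held 52.0 ± 1.502%, rRNAs 38.3 ± 1.964% and mRNAs 9.76 ± 0.462%, so the tRNA share was lower and the other shares higher than in RIP inputs. These shares within the mitochondrial counts do not depend on how libraries are scaled to each other. With 2 libraries a group they were not tested. The stacked bars show the same classes as shares of each whole library.

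**Figure D2:**
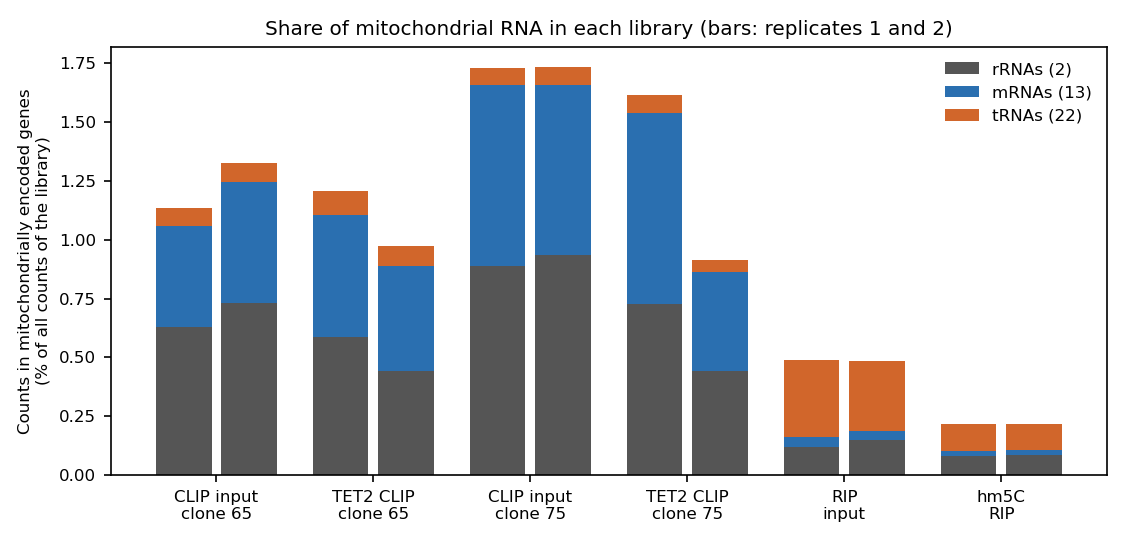
Counts in mitochondrially encoded genes as a percentage of all counts of each of the 12 CLIP and RIP libraries (replicate 1 left, replicate 2 right), stacked by class. Bars are dominated by rRNAs and mRNAs in CLIP and by tRNAs in RIP, and replicate 2 of TET2 CLIP of clone 75 stands well below replicate 1.

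Per kilobase of gene, the 3 highest levels in CLIP inputs of clone 65 were 3587 ± 349 CPM per kb for the proline tRNA mt-Tp, 3082 ± 229 for the small-subunit rRNA mt-Rnr1 and 2401 ± 112 for the methionine tRNA mt-Tm (SD, n = 2). The large-subunit rRNA mt-Rnr2 followed with 1979 ± 104. Next came mt-Tv, the valine tRNA, with 1160.0 ± 157 and mt-Te, the glutamate tRNA, with 1130.1 ± 166, a pair whose ranges overlapped. Inputs of clone 75 began with mt-Rnr1 at 5342 ± 80.04, followed by mt-Tp at 3938 ± 442, mt-Rnr2 at 3368 ± 171, mt-Tm at 2109.8 ± 151 and mt-Te at 2011 ± 237, of which the last pair overlapped. Among mRNAs the order in clone 65 was mt-Co1 (cytochrome c oxidase subunit 1, 943 ± 87.5), then mt-Nd4l (complex I, 552 ± 34.96) and mt-Cytb (cytochrome b of complex III, 494 ± 26.8). The complex I mRNAs mt-Nd1, mt-Nd4, mt-Nd5, mt-Nd6 and mt-Nd2 lay at 422, 411, 381, 293 and 175, and mt-Nd3 at only 29.5 CPM per kb. The ranges of mt-Nd1, mt-Nd4 and mt-Nd5 overlapped in this order, and mt-Nd3 borders the stretch without counts.

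RIP inputs had another order. The glutamine tRNA mt-Tq reached 18078 ± 3930.0 CPM per kb and mt-Tv 13407 ± 1387, followed by the serine tRNA mt-Ts2 with 4689.6 ± 0.903 and the tryptophan tRNA mt-Tw with 3345 ± 46.6 (SD, n = 2). In CLIP inputs of clone 65, mt-Tq was at 64.2 ± 4.11 and mt-Ts2 at 77.8 ± 9.08. mt-Tq alone made up 24.3 ± 3.77% of the mitochondrial counts of RIP inputs, and mt-Rnr2 20.6 ± 3.63%. The highest mRNA of RIP inputs was mt-Nd6 with 199 ± 104 CPM per kb, from 126 in one library to 273 in the other. Some neighbours share bases, from 1 base between mt-Ts2 and mt-Tl2 to 14 bases between mt-Nd5 and mt-Nd6 among counted genes. No source used here gives the use of strand in counting, so reads from opposite strands of a gene cannot be told apart.

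TET2 CLIP was set against input to see which mitochondrial RNAs came down with the tagged protein. Of the 37 genes, 19 passed the count filter (8 tRNAs, 9 mRNAs and 2 rRNAs), and over both clones 2 rose and 2 fell (edgeR, adjusted p below 0.05). Over all 10334 tested features, 8.99% rose and 5.83% fell. The median log2 change was 0.13 for the 8 tRNAs, 0.05 for the 9 mRNAs and -0.45 for the 2 rRNAs, beside -0.03 for all tested features. The leucine tRNA mt-Tl1 and the complex I mRNA mt-Nd5 rose; mt-Rnr2 and the complex I mRNA mt-Nd4 fell.

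mt-Tl1 (MT, 2676 to 2750), which lies directly behind mt-Rnr2 and reads the UUR leucine codons, had 43.2 and 55.1 CPM in the inputs and 309.7 and 175 CPM in TET2 CLIP of clone 65. In clone 75 it had 67.2 and 71.7 CPM in the inputs and 158 and 108 CPM in TET2 CLIP. Every TET2 CLIP library of either clone was above every input. Over both clones the change was 3.07-fold, log2 1.62 (SE 0.18, edgeR adjusted p 2.09e-08), and the call was kept in each of the 8 fits that left out 1 library. As a share of mitochondrial counts, mt-Tl1 went from 0.447 ± 0.0468% to 1.83 ± 0.379% in clone 65 and from 0.351 ± 0.0406% to 1.06 ± 0.145% in clone 75 (SD, n = 2), a measure free of the scaling between libraries.

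mt-Rnr2 (MT, 1094 to 2675), the 16S rRNA directly upstream, moved the other way. It had 3014 and 3248 CPM in the inputs and 3213 and 1809.9 CPM in TET2 CLIP of clone 65, where the groups overlapped. In clone 75 it fell from 5519 and 5138 CPM to 2584 and 1449.5 CPM, without overlap. Over both clones it changed by log2 -0.86 (SE 0.16, edgeR adjusted p 2.54e-04), kept in all 8 fits that left out 1 library. The other rRNA, mt-Rnr1 (12S, MT, 70 to 1024), had 2789 and 3098 and then 3944 and 3259.8 CPM in clone 65 and 5156 and 5047 and then 4859 and 3054 CPM in clone 75. Its log2 change over both clones was -0.04 (SE 0.14, edgeR adjusted p 0.904). mt-Tv, the tRNA between the rRNAs (MT, 1025 to 1093), had a log2 change of -0.66 (SE 0.25, adjusted p 0.0765) and was not called. It had 72.4 and 87.7 against 88.5 and 30.9 CPM in clone 65 and 64.6 and 88.5 against 51.8 and 31.9 CPM in clone 75, inputs first.

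The 2 called mRNAs had weaker calls. mt-Nd5 had 644 and 745 CPM and then 1488 and 1342 CPM in clone 65, and 1627 and 1398 and then 2062 and 984 CPM in clone 75. The TET2 CLIP libraries were above the inputs in clone 65 and on both sides of them in clone 75. Its log2 change over both clones, 0.53 (SE 0.16, adjusted p 0.0187), was kept in 1 of the 8 fits that left out a library and came to 0.09 without replicate 1 of TET2 CLIP of clone 75. mt-Nd4 had 533 and 598 against 459 and 437 CPM in clone 65 and 1352 and 1090.3 against 1028 and 601 CPM in clone 75, a log2 change of -0.45 (SE 0.15, adjusted p 0.0347). This call was lost without replicate 2 of the inputs of clone 65 (adjusted p 0.0905).

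The other 15 tested genes were not called over both clones, with log2 changes from -0.66 (mt-Tv) to 0.47 (mt-Te). They include mt-Co1 at -0.05 (SE 0.15), mt-Cytb at -0.26 (SE 0.14), mt-Tm at 0.05 (SE 0.14) and mt-Tp at -0.35 (SE 0.15). mt-Tm, among the highest tRNAs of the inputs, had 171 and 160.2 CPM in inputs and 227 and 242 CPM in TET2 CLIP of clone 65, and 153 and 138 against 113 and 104 CPM in clone 75, so it stood above its inputs in one clone and below them in the other. mt-Cytb had 544 and 587 against 675 and 519 CPM in clone 65 and 1204 and 1018 against 916 and 529.6 CPM in clone 75. The 9 counted but untested genes were all tRNAs. In the inputs, with 10880636 counts in all, they held 8 (mt-Tt, threonine) to 89 counts (mt-Ta, alanine), and in TET2 CLIP, with 1153413 counts in all, 0 (mt-Tt) to 13 counts (mt-Tq). mt-Ta had 1 count in TET2 CLIP, and mt-Tf (phenylalanine) 11 counts in inputs and 2 in TET2 CLIP. The values for mt-Tc (cysteine) were 36 and 3, for mt-Tr (arginine) 47 and 8, for mt-Th (histidine) 28 and 12, for mt-Ts2 69 and 3, and for the second leucine tRNA mt-Tl2 61 and 6. These counts were too few for a test.

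**Figure D3:**
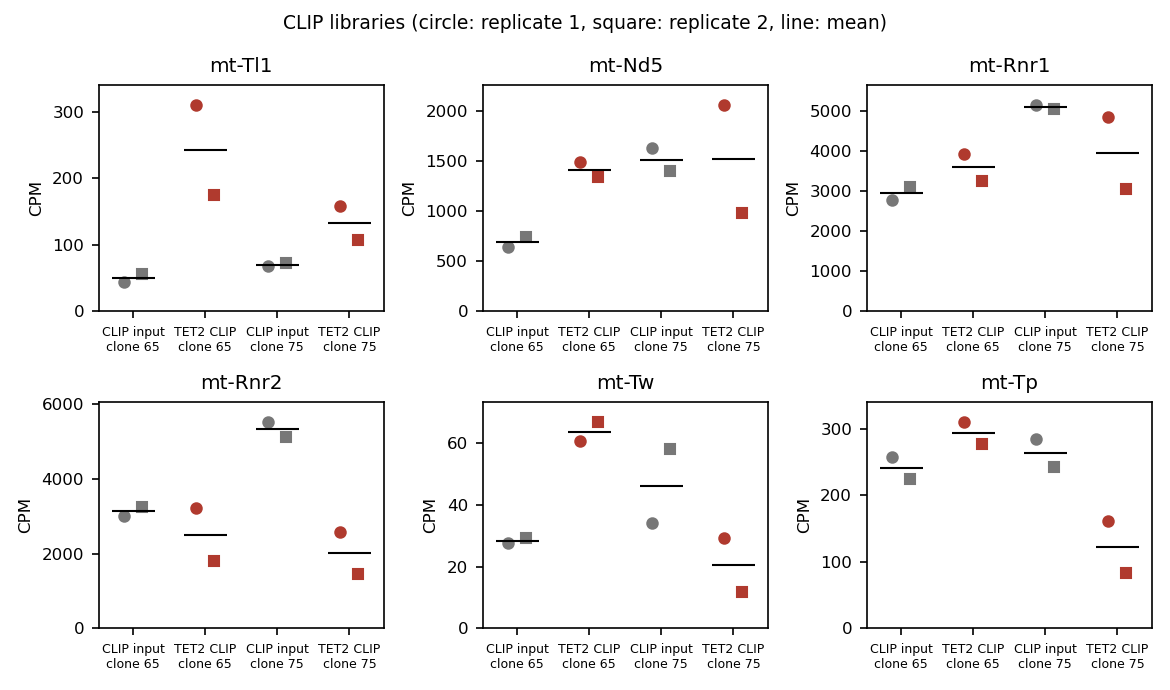
CPM of 6 mitochondrial genes in each of the 8 CLIP libraries (inputs grey, TET2 CLIP red, circle replicate 1, square replicate 2, line the mean of n = 2), each panel starting at 0. mt-Tl1 is above its inputs in both clones; mt-Tp and mt-Tw are above their inputs in clone 65 and below them in clone 75.

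Each clone was then compared with its own inputs. In clone 65, 3 of the 19 tested genes rose and 0 fell (edgeR; 7 rose and 0 fell at an unadjusted p below 0.05), beside 8.21% and 2.87% of all features. In clone 75, 1 rose and 3 fell (1 and 8 at an unadjusted p below 0.05), beside 6.22% and 3.93% of all features. mt-Tl1 rose in both, with a log2 change of 2.26 (SE 0.26, adjusted p 5.35e-08) in clone 65 and 0.98 (SE 0.25, adjusted p 0.00897) in clone 75. The latter call was lost without replicate 1 of TET2 CLIP of that clone (log2 0.51, adjusted p 0.531) and without replicate 2 of its inputs (log2 1.01, adjusted p 0.0626).

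In clone 65 the complex I mRNAs mt-Nd5 (log2 1.02, SE 0.22, adjusted p 0.00152) and mt-Nd4l (log2 0.85, SE 0.21, adjusted p 0.00526) also rose. mt-Nd4l had 157 and 171 CPM in the inputs and 332 and 262 CPM in TET2 CLIP of this clone. Its neighbour mt-Nd4, which shares 7 bases with it, had a log2 change of -0.34 and was not called. Both calls were lost without replicate 1 of the inputs or replicate 1 of TET2 CLIP of clone 65, mt-Nd5 also without replicate 2 of that TET2 CLIP. That of mt-Nd4l was also lost by library size alone (log2 0.44, adjusted p 0.140) and without the count filter (log2 0.38, adjusted p 0.444).

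In clone 75 the genes that fell were mt-Rnr2 (log2 -1.39, SE 0.23, adjusted p 7.17e-05), mt-Tp (log2 -0.98, SE 0.21, adjusted p 0.00151) and mt-Nd1 (log2 -0.71, SE 0.22, adjusted p 0.0407). mt-Tp had 285 and 243 CPM in the inputs and 162 and 83.6 CPM in TET2 CLIP (clone 65: 257 and 224 against 309.7 and 278 CPM), and mt-Nd1, a complex I mRNA, 1001 and 886 against 776 and 331 CPM. The groups did not overlap for any of the 3. The calls of mt-Rnr2 and mt-Tp were kept in all 8 fits that left out a library, while that of mt-Nd1 was kept in 2 of them, with log2 changes from -1.61 to -0.33, and was lost by library size alone (log2 -0.55, adjusted p 0.120). The TET2 CLIP replicates of clone 75 stood apart: replicate 1 was above replicate 2 for 19 of 19 tested mitochondrial genes, with a median ratio of 1.85. In the other CLIP groups the median ratio was 0.900 to 1.27.

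The difference between the clones was itself tested. The change in TET2 CLIP over input was lower in clone 75 than in clone 65 for 5 of the 19 genes and higher for 0 (edgeR; 11 lower and 0 higher at an unadjusted p below 0.05), beside 2.22% lower and 0.329% higher of all features. The sign was negative for 17 of 19 genes, and the median log2 difference was -0.99 for tRNAs, -0.66 for mRNAs and -0.86 for rRNAs, beside 0.02 for all features. The 5 genes were mt-Tw (-2.30, SE 0.60, adjusted p 0.0301), mt-Tl1 (-1.28, SE 0.34, adjusted p 0.0325), mt-Tp (-1.27, SE 0.30, adjusted p 0.0140), mt-Co1 (-1.16, SE 0.30, adjusted p 0.0327) and mt-Nd4l (-1.03, SE 0.27, adjusted p 0.0346).

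mt-Tw went from 27.6 and 29.3 to 60.8 and 66.8 CPM in clone 65 and from 34.3 and 58.3 to 29.3 and 11.9 CPM in clone 75. mt-Co1 went from 1362 and 1553 to 2450.1 and 1748 CPM in clone 65 and from 2758 and 2414 to 2149 and 1159 CPM in clone 75. For both genes the TET2 CLIP libraries lay above the inputs in clone 65 and below them in clone 75, and neither was called within a clone. Scaled by library size alone, the median difference over all features moved from 0.02 to 0.58 and 0 of the 5 calls held, while 17 of 19 mitochondrial genes lay below that median. With the replicate block the calls of mt-Tl1 (log2 -1.35, adjusted p 0.0628) and mt-Tw (log2 -2.19, adjusted p 0.102) were lost. None of the 5 calls was kept in all 8 fits that left out a library.

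**Figure D4:**
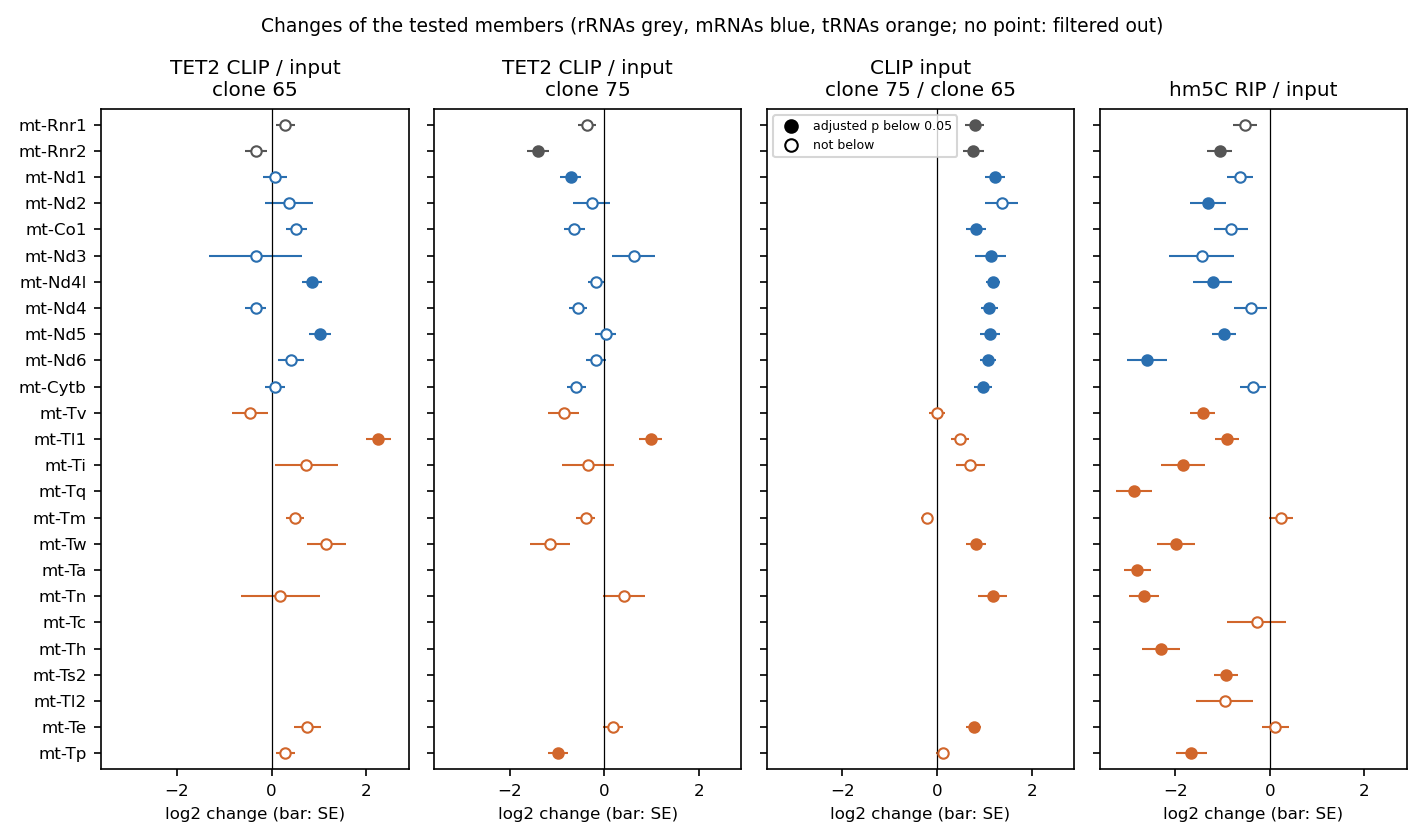
Log2 change with its standard error for each tested mitochondrial gene in 4 comparisons (columns), rRNAs grey, mRNAs blue and tRNAs orange; filled points have an edgeR adjusted p below 0.05, and rows without a point did not pass the count filter. mt-Tl1 is the only gene filled to the right of 0 in both TET2 CLIP columns, and all filled points of the hm5C RIP column lie to the left.

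Levels in the inputs differed between the clones before any pulldown. In inputs of clone 75, 13 of the 19 tested genes were higher than in clone 65 and 0 were lower (edgeR; 16 and 0 at an unadjusted p below 0.05), beside 5.0% higher and 1.9% lower of all features. They were 8 of 9 mRNAs, both rRNAs and 3 of 8 tRNAs, with median log2 differences of 1.12, 0.78 and 0.60, beside 0.01 for all features. The mRNA mt-Nd3 and the tRNA mt-Tn are counted here, though neither would have passed the count filter on the libraries of clone 65 alone. Between the same inputs, 2 of 10 embryonic stem cell markers were lower in clone 75 and 0 higher (4 and 0 at an unadjusted p below 0.05), with a median log2 difference of -0.20 and 7 of 10 negative. The 2 were Tdgf1 (-0.67, SE 0.13, adjusted p 7.85e-04) and Dppa5a (-0.61, SE 0.15, adjusted p 0.00963), and their part in the mitochondrial difference was not tested. These libraries are also the controls of the comparisons above, so the differences are not independent of them.

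Among the mRNAs, mt-Nd4l had 157 and 171 CPM in inputs of clone 65 and 418 and 334 in those of clone 75 (log2 1.17, SE 0.15, adjusted p 1.91e-06). mt-Nd6, the only mRNA of the light strand, had 147 and 157 against 385 and 276 CPM (log2 1.08, SE 0.17, adjusted p 1.13e-04). mt-Nd1 had 380.2 and 427 against 1001 and 886 CPM, mt-Nd3 11.2 and 9.34 against 31.6 and 18.2, and mt-Cytb 544 and 587 against 1204 and 1018. mt-Nd1, mt-Nd4, mt-Nd5, mt-Cytb and mt-Co1 were higher by 1.22, 1.10, 1.12, 0.97 and 0.83 on the log2 scale. mt-Nd3 was also called higher, but it would not have passed the count filter without the libraries of clone 75, so no fold is drawn from it. mt-Nd2, with 166 and 198 against 522 and 428 CPM, had a log2 difference of 1.37 (SE 0.35) and was not called (adjusted p 0.0811). For all 9 mRNAs the inputs of the clones did not overlap.

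The rRNAs mt-Rnr1 and mt-Rnr2 were higher by 0.79 and 0.77 (SE 0.20 and 0.23). Among tRNAs, mt-Te and mt-Tw were higher by 0.77 and 0.82. The asparagine tRNA mt-Tn was called higher with the same limit as mt-Nd3, and no fold is drawn from it. mt-Te had 69.9 and 86.1 CPM in inputs of clone 65 and 150.3 and 127 in those of clone 75, and mt-Tn 8.39 and 13.9 against 30.3 and 24.9. The remaining tRNAs were not called: mt-Tm at -0.20 (SE 0.12), mt-Tv at -0.00 (SE 0.17), mt-Tp at 0.12 (SE 0.14), mt-Tl1 at 0.49 (SE 0.19) and the isoleucine tRNA mt-Ti at 0.70 (SE 0.31). The 7 tested nuclear copies were higher as well (7 of 7, log2 0.80 to 1.48). By library size alone the median of all features moved from 0.01 to -0.33, and 6 mitochondrial genes, all mRNAs, were called higher and mt-Tm lower (-0.55). Of all 10334 tested features, 248 were higher and 1485 lower under that scaling. With each library left out in turn, mt-Nd4 and mt-Nd4l kept the call in all 8 fits and the number called ranged from 4 to 15; without replicate 1 of the inputs of clone 65, mt-Te, mt-Cytb and mt-Nd5 were among those lost.

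The nuclear copy Gm10925, the one of the same length as mt-Atp6, also moved in TET2 CLIP. It had 551 and 645 CPM in the inputs and 2655 and 1578 CPM in TET2 CLIP of clone 65, and 1263 and 1065 against 1416 and 979.6 CPM in clone 75. Its log2 change was 1.82 (SE 0.21, adjusted p 6.14e-08) in clone 65 and 0.06 in clone 75, and the difference of the clones was -1.77 (SE 0.29, adjusted p 3.70e-04). Among the counts of the listed copies, Gm10925 held 20.9% to 22.9% in the 4 inputs, 42.0% and 48.5% in TET2 CLIP of clone 65 and 32.5% and 36.99% in that of clone 75. In every TET2 CLIP library its share was thus above that of every input. The copies Gm13341, Gm28437, Gm28661 and Gm29216 fell in clone 75, by 0.89, 0.81, 0.74 and 0.92 on the log2 scale. Whether reads of mitochondrial transcripts were counted in these genes was not tested.

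hm5C RIP was set against its inputs to see which mitochondrial RNAs came down with the hm5C antibody. Of the 37 genes, 25 were tested (14 tRNAs, 9 mRNAs and 2 rRNAs), and relative to the other features 15 fell and 0 rose (edgeR, adjusted p below 0.05; also 15 and 0 at an unadjusted p below 0.05), beside 18.9% that fell and 33.0% that rose of all 2081 tested features. They were 10 of 14 tRNAs, 4 of 9 mRNAs and 1 of 2 rRNAs, with median log2 changes of -1.54, -0.97 and -0.79, beside 0.15 for all features. With Acsl6 left out and TMM kept, 15 fell and 0 rose, beside 455 and 824 of 2523 features. By library size alone with Acsl6 kept, 14 fell and 0 rose, beside 344 and 730 of 2081 features. There mt-Nd4l had an edgeR adjusted p of 0.0578. Neither choice alone turned a direction. Both choices together did: without Acsl6 and by library size alone, the median of all features moved to 1.95, and 6 mitochondrial genes rose and 4 fell, beside 65.6% and 3.65% of all features. Under that scaling all 26 tested mitochondrial genes lay below the median of all features, and mt-Tq, mt-Ta, mt-Tn and mt-Nd6 still fell.

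mt-Tq (MT, 3772 to 3842) had 1481 and 1086 CPM in RIP inputs and 232 and 122 CPM in hm5C RIP, log2 -2.86 (SE 0.38, edgeR adjusted p 7.96e-04). mt-Ta (MT, 5018 to 5086) had 102 and 93.6 against 16.4 and 12.03 CPM (log2 -2.80, SE 0.29, adjusted p 3.55e-04), and its neighbour mt-Tn (MT, 5089 to 5159) 132 and 115 against 24.2 and 15.3 CPM (log2 -2.66, SE 0.31, adjusted p 5.38e-04). The mRNA mt-Nd6 (MT, 13552 to 14070) had 141 and 65.3 against 15.1 and 18.7 CPM (log2 -2.60, SE 0.42, adjusted p 0.00147). For these 4 genes each hm5C RIP library was below each input, and without Acsl6 and by library size alone the log2 changes were -1.46, -1.35, -1.23 and -1.11. All 4 are known to be encoded on the light strand; a grouping by strand was made after these values were seen. Of 7 tested light-strand genes 5 fell with TMM scaling (median -2.60) and of 18 heavy-strand genes 10 fell (median -0.96), a difference that was not tested. The 4 genes that prompted the grouping are among the 5. The light-strand tRNAs mt-Te and mt-Tc were not called (0.11 and -0.28).

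mt-Tv, with 993 and 857 CPM in inputs and 324 and 368 CPM in hm5C RIP, changed by -1.42 (SE 0.26, adjusted p 0.00276) but held nearly the same share of mitochondrial counts, 17.6 ± 0.709% and 17.0 ± 3.35% (SD, n = 2). mt-Ts2 had 277 and 277 against 158 and 134 CPM (log2 -0.92, SE 0.25), and its share was 5.27 ± 0.334% and 7.10 ± 0.0685%. mt-Tl1 had 129 and 127 against 77.3 and 59.7 CPM (log2 -0.90, SE 0.26, adjusted p 0.0198), a fall with TMM scaling. Its share of mitochondrial counts went the other way, from 2.43 ± 0.129% to 3.32 ± 0.252%. The rise of mt-Tl1 in TET2 CLIP was seen in different cells and library types. Without Acsl6 and by library size alone the log2 changes of mt-Tv, mt-Ts2 and mt-Tl1 were 0.06, 0.52 and 0.53, with none called.

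The other tRNAs that fell were mt-Th (-2.31, SE 0.40), mt-Tw (-1.98, SE 0.40), mt-Ti (-1.84, SE 0.46) and mt-Tp (-1.66, SE 0.33), each without overlap of the groups. mt-Th had 31.2 and 29.8 CPM in inputs and 3.93 and 7.88 in hm5C RIP, mt-Tw 222 and 226 against 80.6 and 34.4, mt-Ti 30.3 and 23.6 against 11.1 and 4.56, and mt-Tp 87.7 and 77.4 against 34.1 and 19.1. They kept their sign without Acsl6 and by library size alone, at -0.81, -0.60, -0.42 and -0.24, but were not called there. mt-Tm, the methionine tRNA (MT, 3845 to 3913), had 57.4 and 57.00 CPM in inputs and 60.9 and 74.2 CPM in hm5C RIP, and mt-Te 127 and 94.2 against 139 and 101 CPM. Their log2 changes, 0.24 (SE 0.25, adjusted p 0.461) and 0.11 (SE 0.29, adjusted p 0.782), were the only positive ones of the 25 and were not called. Without Acsl6 and by library size alone both were called higher, at 1.72 and 1.55. As shares of mitochondrial counts, mt-Tm went from 1.09 ± 0.0634% to 3.33 ± 0.813% and mt-Te from 2.09 ± 0.307% to 5.81 ± 0.680% (SD, n = 2). mt-Tc (-0.28, SE 0.63) and mt-Tl2 (-0.95, SE 0.60) were not called.

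**Figure D5:**
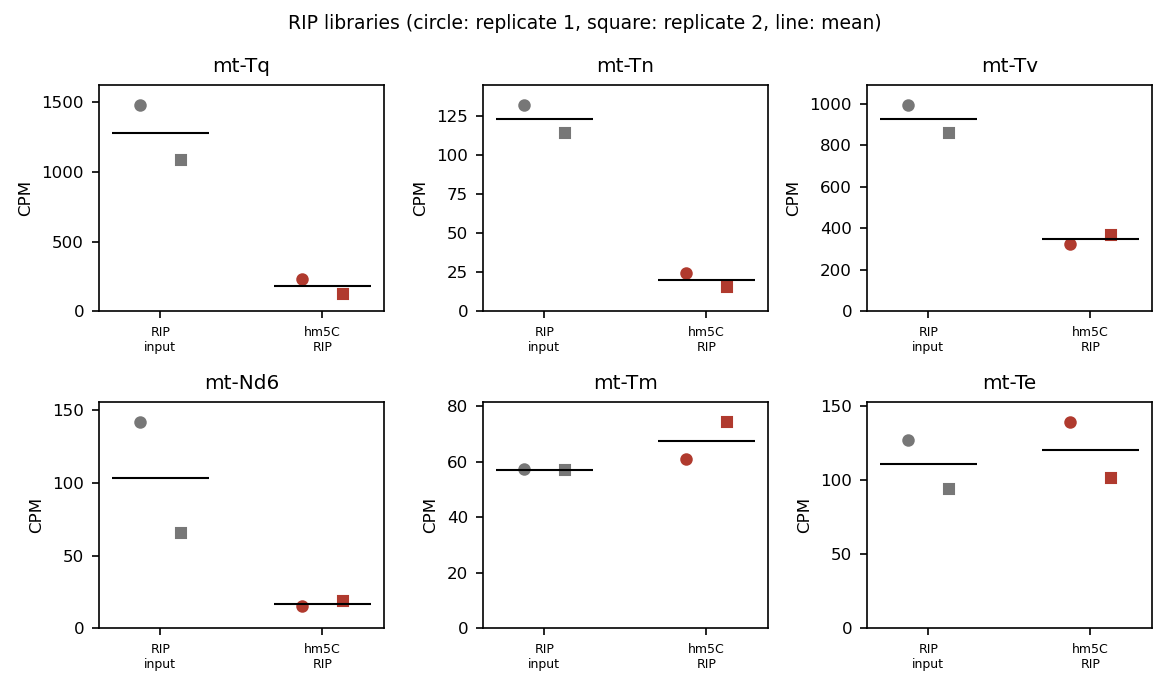
CPM of 6 mitochondrial genes in the 2 RIP inputs (grey) and 2 hm5C RIP libraries (red), circle replicate 1, square replicate 2, line the mean, each panel starting at 0. mt-Tq, mt-Tn, mt-Tv and mt-Nd6 are lower in hm5C RIP with TMM scaling (mt-Tv is not lower without Acsl6 and by library size alone), while mt-Tm and mt-Te are not.

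Of the mRNAs, mt-Nd2, mt-Nd4l and mt-Nd5 also fell with TMM scaling, by 1.30, 1.21 and 0.97 on the log2 scale (SE 0.38, 0.42 and 0.25), and stood at 0.13, 0.22 and 0.51 without Acsl6 and by library size alone. mt-Nd2 had 22.5 and 24.04 against 11.8 and 7.46 CPM, mt-Nd4l 21.6 and 18.9 against 11.8 and 6.22, and mt-Nd5 88.4 and 86.8 against 40.6 and 48.5. The calls of mt-Nd2 and mt-Nd4l were lost without replicate 2 of the inputs (adjusted p 0.0584 and 0.0565), that of mt-Nd4l also without replicate 1 (adjusted p 0.125). mt-Co1, mt-Cytb, mt-Nd1, mt-Nd3 and mt-Nd4 were not called, with log2 changes of -0.82, -0.36, -0.63, -1.44 and -0.40. mt-Co1 had 60.1 and 61.3 against 47.2 and 22.8 CPM and mt-Cytb 35.4 and 39.6 against 30.1 and 28.2.

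mt-Rnr2 had 989 and 1162 CPM in inputs and 552 and 484 CPM in hm5C RIP (log2 -1.05, SE 0.26, adjusted p 0.0108), and mt-Rnr1 353 and 407 against 263 and 269 CPM (log2 -0.52, SE 0.25, adjusted p 0.126). Without Acsl6 and by library size alone they stood at 0.38 and 0.94, the latter called higher. The untested tRNAs mt-Tf, mt-Tr and mt-Tt had 27, 28 and 14 counts in inputs and 7, 1 and 4 in hm5C RIP, against library totals of 9531906 and 3664201. Sums over markers of other cell types were not level here: fibroblast markers summed to 36.4 to 45.2 counts per 1000000 library counts in hm5C RIP (5 of 8 with counts; Lum, Thy1 and Postn at 0) and primitive endoderm markers to 9.05 to 10.2 (7 of 8; Foxa2 at 0). Most of each sum came from 1 gene: Col1a2 had 13 and 12 counts in inputs and 50 and 84 in hm5C RIP, with 0 to 8 counts for any other fibroblast marker there, and Sox7 had 0 and 0 and then 10 and 12, with 0 to 2 for any other endoderm marker there. Embryonic stem cell markers summed to 12.1 to 31.0 (9 of 10; Zfp42 at 0). Their part, and that of Acsl6, in the mitochondrial values was not tested.

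Lists of nuclear genes that act on mitochondrial RNA were read beside the 8.99% of all features that rose and the 5.83% that fell in TET2 CLIP. Of 20 listed genes that charge mitochondrial tRNAs, 17 were tested, and over both clones 0 rose and 1 fell, with a median log2 change of -0.32. Of 32 genes of mitochondrial transcription and RNA processing, 21 were tested, and 2 rose and 1 fell (median -0.35). Of 24 genes of RNA modification, 17 were tested, and 1 rose and 0 fell (median -0.12). Trmt10c of the processing genes and Mrm2 of the modification genes would not have passed the count filter on their inputs alone. Over all tested features the median was -0.03, and most features were likewise not called.

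The charging enzyme that fell was Lars2, the mitochondrial leucyl-tRNA synthetase, which charges mt-Tl1 and mt-Tl2. It had 11674 and 11437 CPM in inputs and 3623 and 3100.4 CPM in TET2 CLIP of clone 65, and 24303 and 18670.0 against 3601 and 3214 CPM in clone 75, without overlap in either. Its log2 change was -2.22 (SE 0.14, edgeR adjusted p 8.99e-14). Its row held 161184 counts in the CLIP libraries, while the next highest charging enzyme, Tars2, held 1284. Whether all reads of that row come from the Lars2 mRNA was not tested.

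Among processing genes, Elac2, the nuclease that cuts at the 3′ end of mitochondrial tRNAs, had 27.3 and 26.7 against 60.8 and 35.99 CPM in clone 65 and 29.01 and 28.7 against 65.3 and 39.8 CPM in clone 75 (log2 0.89, SE 0.28, adjusted p 0.0286). Trmt10c, a subunit of mitochondrial RNase P, had 11.8 and 13.4 CPM in inputs and 116 and 87.4 CPM in TET2 CLIP of clone 65, and 11.9 and 15.8 against 6.75 and 19.9 CPM in clone 75. Trmt10c was called higher in clone 65 and not called in clone 75, and the difference of the clones was called. It would not have passed the count filter without the TET2 CLIP libraries, where it was high in clone 65. These calls are therefore a description and no fold is drawn from them. Tfam, which packages mitochondrial DNA and helps to start its transcription, fell (log2 -1.27, SE 0.41, adjusted p 0.0328). Mrm2, a 2′-O-methyltransferase of the 16S rRNA, was called higher, with 55.3 and 10.3 and 20.3 and 3.98 CPM in the TET2 CLIP libraries, which overlapped the inputs. Mrm2 was so scarce in input that it passed the filter through TET2 CLIP, so its call is a description and no fold is drawn from it. Tet2 changed by -0.01 (SE 0.12, adjusted p 0.968).

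In the inputs, Lars2 was higher in clone 75 by 0.89 (SE 0.19, edgeR adjusted p 0.00215). Iars2, the mitochondrial isoleucyl-tRNA synthetase, was lower, with a log2 difference of -0.63. Osgepl1, a tRNA-modifying enzyme, was also called lower. Osgepl1 would not have passed the count filter without the inputs of clone 65, where it was high, so no fold is drawn from it. In RIP only 6 genes of the 3 lists passed the filter, and 3 were called higher and 0 lower, beside 33.0% and 18.9% of all features. The 3 were Vars2, the mitochondrial valyl-tRNA synthetase, with 0.727 and 1.06 CPM in inputs and 17.03 and 9.95 in hm5C RIP, Trub2, a pseudouridine synthase, with 0.484 and 0.213 against 3.27 and 3.73, and Trmt61b, a methyltransferase of mitochondrial RNA, with 0.242 and 0.851 against 24.2 and 29.03. These were too scarce in input to have passed the filter unless high in hm5C RIP, so their calls are given as a description and no fold is drawn from them. The other 3 were not called: Lars2 at a log2 change of 0.46 (SE 0.34), Tbrg4 at -1.32 (SE 0.70), and Mrm1, a methyltransferase of the 16S rRNA. Mrm1 had 9 and 15 counts in inputs and 9 and 19 in hm5C RIP. It too was so scarce in input that it passed the filter through hm5C RIP, so no fold is drawn from it.

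The tRNA fragment table held a single mitochondrial tRNA, a leucine tRNA with anticodon TAA, the anticodon of mt-Tl1. A feature of that name is also listed in the CLIP and RIP tables, with 0 counts. Its 5′ fragments (tRF5) had 57, 78 and 59 counts in WT and 105, 87 and 91 in Tet2 KO of experiment 1, and 55, 52 and 45 counts in E14 and 46, 38 and 50 in Tet2 KO of experiment 2. As CPM of the tested tRNA fragments these were 613 ± 71.2 and 708 ± 120 (SD, n = 3, TMM scaled) in experiment 1, with overlap, and 423 ± 28.6 and 294 ± 57.4 in experiment 2, without overlap. Replicate 1 of WT stood apart from its group over all fragments (chi-square per degree of freedom 27.5 and 29.3 against the other replicates, which differed by 2.87). Neither change was called: log2 0.20 (SE 0.20, edgeR adjusted p 0.428) and -0.53 (SE 0.28, adjusted p 0.227), the first being 0.16 (adjusted p 0.587) without that library, beside 38.0% and 15.1% of all fragments called in either direction.

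Fitted over both experiments, the log2 change of this fragment in experiment 2 minus that in experiment 1 was -1.25 (SE 0.42, adjusted p 0.0366), beside 16.3% of fragments called. The median over all 698 tested fragments was itself -0.39 in that fit, and 0.11 without replicate 1 of WT. How far the value of this fragment reflects a shift shared by the fragments was not tested. The separate fits differed by less, and the call was lost by size factors or library size alone, without the count filter, with the replicate block and in 10 of the 12 fits that left out a library. Without replicate 1 of WT it was -0.65 (adjusted p 0.279), and it was -0.84 to -0.65 without any 1 library of experiment 2. Control line, knockout set and library kit differed together between the experiments, so they cannot be told apart. The 3′ fragments of the same tRNA had 0 to 22 counts a library and were not tested.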

How the data were processed

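All values start from raw read counts that the authors deposited, whole numbers with differing library totals. Per the submitters' processing notes, the reads went through STAR 2.5.3a, Bowtie2 2.2.6, cutadapt and UMI-tools on mm10. Which tool counted reads, on which annotation and with what treatment of strand and of multiply mapped reads is not given in the sources used here. Replicates were separate biological samples per the series' design text.

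The 37 members were matched by Ensembl identifier to the RefSeq table for GRCm38.p6, the assembly of mm10. Counts were tested over all features with edgeR 4.0.16 in R 4.3.3: after filterByExpr and TMM scaling, with robust quasi-likelihood tests whose p-values were adjusted by Benjamini-Hochberg over all tested features (threshold 0.05). CLIP was fitted over 8 libraries, RIP over 4, and the tRNA fragments per experiment over 6 and jointly over 12. CPM are counts per 1000000 counts in tested features, scaled by TMM, and are given as mean and SD of n = 2 (fragments n = 3), while log2 changes carry the SE of the fitted model. Floors are 3 counts and cover counting error alone, since replicates differed by more (chi-square per degree of freedom 1.66 to 29.3 over 18 pairs).

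Members called in any comparison, both rRNAs and the 3 members of each class with the highest input level are given by library, and of other lists up to 4 called genes per comparison. The members and lists were chosen with earlier results of these data known, and the tRNA fragment row was added after the files were seen. Alternatives were DESeq2 1.42.0 size factors and its Wald test, library size alone, no count filter, a replicate block, leaving out each library or Acsl6, and shares without the most counted feature. The tests were also run on simulated data holding known fold changes.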

Additional observations from a re-analysis of the deposited data

Results flagged for a closer look

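In 5 mitochondrial genes the change from input to TET2 CLIP differed between the clones by a test of the difference itself (clone 75 minus clone 65, edgeR). The log2 differences were -2.30 for mt-Tw (adjusted p 0.0301), -1.28 for mt-Tl1 (adjusted p 0.0325), -1.27 for mt-Tp (adjusted p 0.0140), -1.16 for mt-Co1 (adjusted p 0.0327) and -1.03 for mt-Nd4l (adjusted p 0.0346). mt-Tl1 was above its inputs in both clones, by 4.79-fold in clone 65 and 1.97-fold in clone 75. mt-Nd4l, mt-Co1 and mt-Tw were higher by 2.26-fold, 1.77-fold and 1.77-fold in the inputs of clone 75, to which their TET2 CLIP libraries are compared. mt-Tl1 and mt-Tp were not called between the inputs. By library size alone 0 of the 5 differences were called, and none was kept in all fits that left out a library.

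The 5′ fragments of the mitochondrial leucine tRNA differed between the small RNA experiments in their change on loss of Tet2. The difference was -1.25 for experiment 2 minus experiment 1 (edgeR adjusted p 0.0366), beside a median of -0.39 over all tested fragments. Neither experiment alone gave a call for this fragment. The replicate block ended the calls of mt-Tl1 (-1.35), mt-Tw (-2.19) and this fragment.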

How the results depend on the processing

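No called CLIP change turned its direction under any setting, while calls came and went. Over both clones, 1 gene rose by library size alone, without the count filter or with the DESeq2 Wald test, and 4, 9 and 1 fell. Of the 10334, 38054 and 10334 features tested there, 804, 807 and 964 rose and 966, 1871 and 521 fell. In clone 65, 2 fell by library size alone or without the filter, beside 1344 of 10334 and 1126 of 38054 features. mt-Nd4l lost its call under both (0.44 and 0.38). mt-Nd1 lost its call in clone 75 by library size alone (-0.55). In clone 75, 0 rose without the filter or with the Wald test, beside 436 of 38054 and 563 of 10334 features. There 6 fell with DESeq2 size factors, 10 without the filter and 6 with the replicate block. Of all features, 432 of 10334, 601 of 38054 and 264 of 10334 fell under the same settings. Correlations of same-numbered deviations were 0.0257, 0.0725 and 0.132 in clone 65, clone 75 and RIP. Counting error lowers such correlations, so they cannot settle whether replicate numbers paired the samples. The difference of the clones was called for 0 genes by library size alone and for 1 without the filter, and mt-Tl1 (-1.35) and mt-Tw (-2.19) lost it with the replicate block. Of all features, 567 were higher and 102 lower of 10334 by library size alone, and 59 and 141 of 38054 without the filter. Between inputs, 6 were higher and 1 lower by library size alone, beside 248 and 1485 of 10334 features. With the Wald test 7 were higher, beside 264 of 10334.

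Leaving out each library gave 1 to 2 risen and 1 to 8 fallen genes over both clones, 1 to 4 and 0 to 1 in clone 65, 0 to 1 and 2 to 10 in clone 75, 0 to 12 lower in the difference, 4 to 15 higher between inputs and 14 to 19 fallen in hm5C RIP. The most fell over both clones without replicate 1 of TET2 CLIP of clone 75. mt-Tl1 and mt-Rnr2 over both clones, mt-Tl1 in clone 65 and mt-Rnr2 and mt-Tp in clone 75 were kept in all 8 such fits.

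In hm5C RIP without Acsl6 and by library size alone, 6 rose and 4 fell, beside 65.6% and 3.65% of all features. There mt-Tv (0.056), mt-Rnr2 (0.38), mt-Tl1 (0.53), mt-Nd2 (0.13), mt-Ts2 (0.52), mt-Nd5 (0.51) and mt-Nd4l (0.22) turned. With Acsl6 left out but TMM kept, all 15 calls held. By library size alone with Acsl6 kept, 14 fell and 0 rose, beside 344 and 730 of 2081 features. The fragment difference lost its call at -1.04 (size factors), -1.05 (library size), -0.76 (no filter) and -1.28 (replicate block), and ranged from -1.44 to -0.65 with a library left out.

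Without the most counted feature, shares of the library for tRNA, mRNA and rRNA were 0.100, 0.609 and 0.881% in inputs and 0.115, 0.590 and 0.629% in TET2 CLIP of clone 65, 0.110, 1.11 and 1.35% in inputs and 0.0803, 0.763 and 0.730% in TET2 CLIP of clone 75, 0.369, 0.0451 and 0.159% in RIP inputs, and 0.268, 0.0503 and 0.198% in hm5C RIP, so the tRNA share was above its inputs in clone 65 and below them in clone 75, while tRNA stayed lower and mRNA and rRNA became higher in hm5C RIP. Where no cause is named, the cause was not tested. TET2 CLIP depth limits what can be seen: 9 of 17 counted tRNAs had too few counts for a test.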
